A study of Homo sapiens with 9 samples.

Results

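The genes described here are the row for fibronectin, FN1, and the rows for 9 other matrix glycoprotein and adhesion genes that were not collagens, namely TNC, THBS1, THBS2, SPARC, POSTN, VCAN, FBN1, TGFBI and the hyaluronan receptor CD44. They were chosen by symbol, 10 of the 26475 rows of the count table, and the set was proposed with 1 measured value in view, that FN1 was the most counted gene of every Soft library. FN1 in Soft is therefore given as a description with no test, and the 9 others are counted there. RNA of hTERT_RPE1, a human retinal pigment epithelial line immortalised with telomerase, was sequenced in 9 libraries, 3 per group. Control cells carried the empty pLKO vector according to the sample titles, whereas their treatment label reads control shRNA, and grew on glass. In sh_PIP4K2B, cells on glass carried a short hairpin RNA against PIP4K2B, which encodes a kinase of the phosphoinositide PtdIns5P, and each of the 3 libraries came from another hairpin (#1, #2 and #3), so that differences between hairpins and between replicates cannot be told apart. Soft cells carried the vector of the Control cells and grew on hydrogels of 2.3 kPa. Every surface, glass and gel alike, was coated with fibronectin protein, and cells of all groups were collected 24 h after seeding.

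Fibronectin is secreted as a dimer and pulled by integrins into fibrils, on which other matrix proteins assemble. Matricellular proteins such as tenascin-C (TNC), the thrombospondins (THBS1, THBS2), SPARC and periostin (POSTN) sit in the matrix without being its main scaffold and change how cells adhere to it. Fibrillin-1 (FBN1) forms microfibrils that hold latent TGF-beta, versican (VCAN) is a large proteoglycan that binds hyaluronan, TGFBI is an adhesion protein named for its induction by TGF-beta, and CD44 is a cell-surface receptor of hyaluronan. The retinal pigment epithelium rests in the eye on a basement membrane, and such cells in culture are known to deposit fibronectin.

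To show the DNA ahead of the genes that the results turn on, the 250 bases before the RefSeq transcription start (GRCh38.p14) are printed for FN1 and for the 4 genes that passed the test between Soft and Control. Capitals mark matches on either strand to the TATA box (TATAAA), the GC box (GGGCGG), the CCAAT box (CCAAT), the AP-1 site (TGACTCA), the cAMP response element (TGACGTCA) and the core bound by TEAD factors (GGAATG). These motifs were chosen after the expression values were seen. The windows lie at chr2:215436069-215436318 for FN1, chr9:115118158-115118407 for TNC, chr15:39580829-39581078 for THBS1, chr6:169253847-169254096 for THBS2 and chr13:37598769-37599018 for POSTN, all on the minus strand except that of THBS1, and are written 5′ to 3′ on the strand of the gene. In GENCODE the gene starts upstream of the RefSeq start for each of these except THBS1, so that part of the other 4 windows lies within the GENCODE gene.
FN1: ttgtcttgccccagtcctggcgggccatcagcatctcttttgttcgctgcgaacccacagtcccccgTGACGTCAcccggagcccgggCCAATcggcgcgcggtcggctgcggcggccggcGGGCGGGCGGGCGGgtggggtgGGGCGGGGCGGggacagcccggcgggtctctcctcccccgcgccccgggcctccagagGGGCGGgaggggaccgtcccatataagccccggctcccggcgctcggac
TNC: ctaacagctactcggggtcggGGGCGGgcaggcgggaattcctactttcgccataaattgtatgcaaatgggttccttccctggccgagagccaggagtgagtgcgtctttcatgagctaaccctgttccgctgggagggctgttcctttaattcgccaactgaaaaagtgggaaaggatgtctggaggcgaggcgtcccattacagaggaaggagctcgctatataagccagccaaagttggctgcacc
THBS1: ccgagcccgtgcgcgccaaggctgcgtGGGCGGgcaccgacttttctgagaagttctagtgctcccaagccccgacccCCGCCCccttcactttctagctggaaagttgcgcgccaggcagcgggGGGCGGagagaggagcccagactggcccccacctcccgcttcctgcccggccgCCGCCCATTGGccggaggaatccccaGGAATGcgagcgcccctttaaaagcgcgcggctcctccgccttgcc
THBS2: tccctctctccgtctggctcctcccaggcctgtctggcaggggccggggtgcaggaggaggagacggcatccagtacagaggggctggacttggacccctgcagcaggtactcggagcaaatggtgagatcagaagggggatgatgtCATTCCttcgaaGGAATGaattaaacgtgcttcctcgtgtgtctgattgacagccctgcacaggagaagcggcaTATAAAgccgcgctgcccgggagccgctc
POSTN: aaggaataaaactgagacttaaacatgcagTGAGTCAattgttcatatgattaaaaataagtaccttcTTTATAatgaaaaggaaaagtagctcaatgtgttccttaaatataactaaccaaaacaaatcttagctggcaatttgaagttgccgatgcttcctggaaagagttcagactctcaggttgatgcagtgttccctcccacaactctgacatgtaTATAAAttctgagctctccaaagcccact

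The FN1 window was made up of 76.4% G and C, against a median of 58.0% over 35116 RefSeq promoters, and its GC boxes included a run of overlapping copies. The POSTN window had 36.4% G and C and held no GC box. Of the 10 genes, 6 had a GC box (FN1, TNC, THBS1, VCAN, TGFBI and CD44), a motif that 42.6% of all promoters held. The exact letters TATAAA were found in THBS2 and POSTN, in both at 29 bases before the start, against 10.7% of all promoters. Variants were not searched, such as the TATAAG near the end of the FN1 and TNC windows. The GGAATG core was found in THBS1, THBS2, SPARC and FBN1, against 11.9% of all promoters. The cAMP response element of FN1 and the AP-1 site of POSTN were motifs of 1.65% and 4.2% of all promoters, and CCAAT boxes, present in 32.0%, lay in FN1 and THBS1. No window held the palindromic SMAD site GTCTAGAC, found in 0.182% of promoters. A match of letters describes the window and does not show that a factor binds there.

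**Figure D1:**
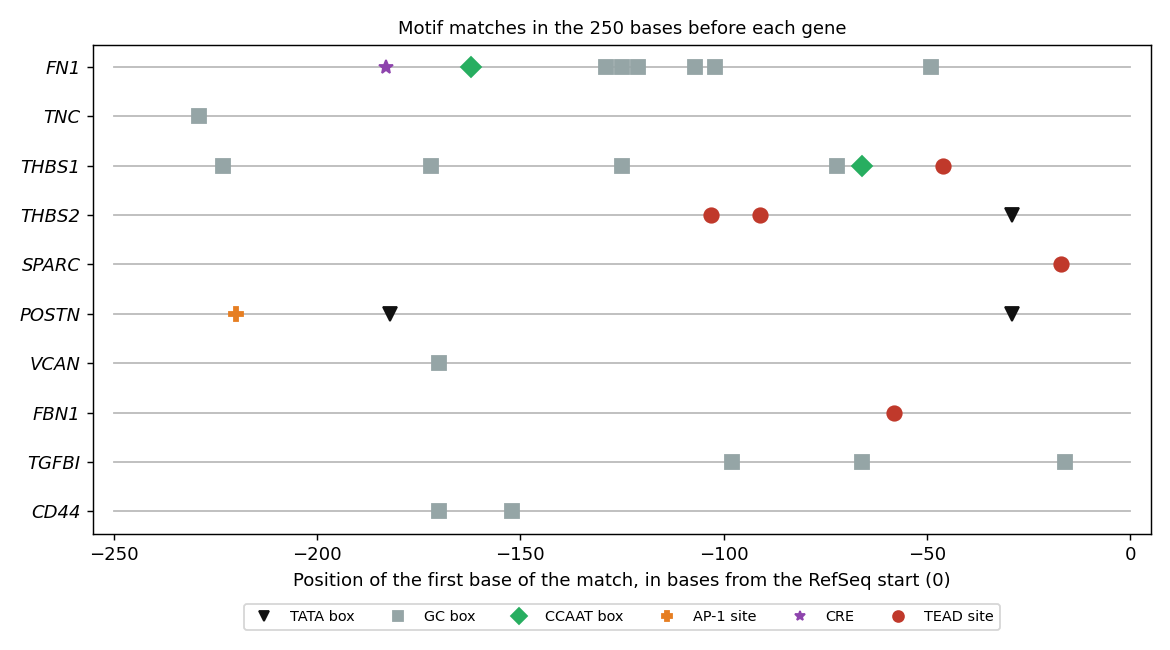
Matches to 6 motifs in the 250 bases before the RefSeq start of each gene. The x axis gives the position of a match in bases from the start and each row is a gene. GC boxes appear in 6 rows, with the most in FN1, and exact matches to TATAAA in the rows of THBS2 and POSTN alone.

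In GRCh38 (GENCODE v44), FN1 spans chr2:215360440-215436073 with 46 exons in its canonical transcript, TNC chr9:115019575-115118207, THBS1 chr15:39581079-39599466, THBS2 chr6:169215780-169254050, SPARC chr5:151661096-151686975, POSTN chr13:37562583-37598844, VCAN chr5:83471618-83582303, FBN1 chr15:48408313-48645721, TGFBI chr5:136028988-136063818 and CD44 chr11:35138882-35232402. THBS1, VCAN, TGFBI and CD44 lie on the plus strand and the others on the minus strand. A row of the table sums all splice forms of a gene, 27 annotated transcripts for FN1 and 38 for CD44, so the alternative exons of FN1, TNC, VCAN and CD44 were not resolved. Of the annotated genes that overlap these loci, 1 was a row of the table under that name, FSIP1 on the strand opposite THBS1, with between 22 and 42 counts per library.

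Library totals ran from 19217346 to 24020799 counts, and the floor of 3 counts was between 0.131 and 0.148 CPM (counts scaled to a common library total). PIP4K2B, the targeted gene, had 123, 124 and 120 CPM in Control, 48.4, 40.9 and 36.6 CPM with hairpins #1, #2 and #3, and 119, 122 and 127 CPM in Soft. It fell by 1.54 on the log2 scale in sh_PIP4K2B (SE 0.12, edgeR adjusted p = 0.00038). Spread between libraries was larger in sh_PIP4K2B than in the other groups. The median SD of log2 CPM over 13784 genes was 0.08 in Control, 0.36 in sh_PIP4K2B and 0.07 in Soft, and over the 10 genes it was 0.03, 0.77 and 0.08. Of 13 markers of pigment epithelium, 3 reached 1 CPM (MITF, OTX2 and MERTK), and DCT and TTR were at 0 in all libraries. The summed level of these markers ranged over 47.1 to 53.3 CPM (Control), 43.8 to 59.4 CPM (sh_PIP4K2B) and 65.2 to 70.2 CPM (Soft). That sum joins genes that moved in opposite directions in Soft, with MITF lower and OTX2 and MERTK higher than in Control. Their means in Control, sh_PIP4K2B and Soft were 36.5, 30.8 and 26.0 CPM (MITF), 10.9, 17.1 and 37.2 CPM (OTX2), and 1.11, 2.42 and 2.48 CPM (MERTK). Of 10 markers of other cell types, 2 reached 1 CPM (PECAM1 and TEK), with sums of 1.80 to 2.62, 1.11 to 1.93 and 6.39 to 7.48 CPM in the same order. Here too the genes moved apart in Soft, where PECAM1 made up most of the sum. Means in that order were 0.103, 0.208 and 4.79 CPM for PECAM1, and 1.03, 0.463 and 0.275 CPM for TEK. In these bulk samples fewer cells of a type and less RNA per cell cannot be told apart, and no source states that the replicates were separate cultures, so p-values measure the spread between these libraries, which may be technical.

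FN1 took the largest share of reads of the 10 genes. It held 2.69, 2.65 and 2.56% of all counts in the Control libraries, 1.06, 3.55 and 2.31% with hairpins #1, #2 and #3, and 3.21, 3.74 and 3.61% in Soft. By count it was in place 2 in all Control and hairpin libraries, behind the ribosomal RNA row RNA28S5, and in place 1 in all Soft libraries. RNA28S5 held 2.80 to 3.27% of counts in Control and 1.68 to 2.38% in Soft. All 10 genes together made up 4.01 to 4.16% of counts in Control, 2.03 to 5.46% in sh_PIP4K2B and 4.46 to 5.01% in Soft. Without FN1 the share was 1.45 to 1.47% in Control, 0.968 to 1.91% in sh_PIP4K2B and 1.25 to 1.29% in Soft.

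Levels of different genes were set side by side as CPM per kilobase of the canonical transcript. On that scale FN1 was in place 4 of 18981 protein-coding genes in each Control library, in place 2 in each Soft library, and in places 19, 2 and 5 with hairpins #1, #2 and #3. In Control the order of the mean levels was FN1 (3286 CPM per kilobase ± 81.8, SD, n = 3), SPARC (1125 ± 4.84), THBS1 (767 ± 14.5), TGFBI (351 ± 9.19), CD44 (282 ± 5.77), FBN1 (152 ± 1.70), VCAN (87.9 ± 1.63), TNC (10.3 ± 0.237), POSTN (5.69 ± 0.1999) and THBS2 (0.0623 ± 0.0219). The SDs of neighbours in that order did not overlap. Here and below, these SDs cover the spread between libraries and not the choice of transcript length, on which the order of genes also depends. In Soft the order was FN1 (4078 ± 335), SPARC (909 ± 29.0), TGFBI (465 ± 29.4), CD44 (343 ± 8.15), THBS1 (279 ± 14.7), VCAN (195 ± 10.7), FBN1 (110 ± 6.33), TNC (26.4 ± 2.59), POSTN (0.842 ± 0.167) and THBS2 (0.274 ± 0.006825), again with no overlap between neighbours. THBS1 thus stood below TGFBI and CD44 in Soft and above them in Control, and VCAN and FBN1 traded places. In sh_PIP4K2B the order of means was that of Control, but the SDs of most neighbours overlapped, as for FN1 (2786 ± 1700) and SPARC (1385 ± 266) and for FBN1 (145 ± 65.3) and VCAN (103 ± 59.0). They did not for SPARC and THBS1 (666 ± 328), VCAN and TNC (13.3 ± 7.77), or POSTN (3.79 ± 1.99) and THBS2 (0.0765 ± 0.0412).

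**Figure D2:**
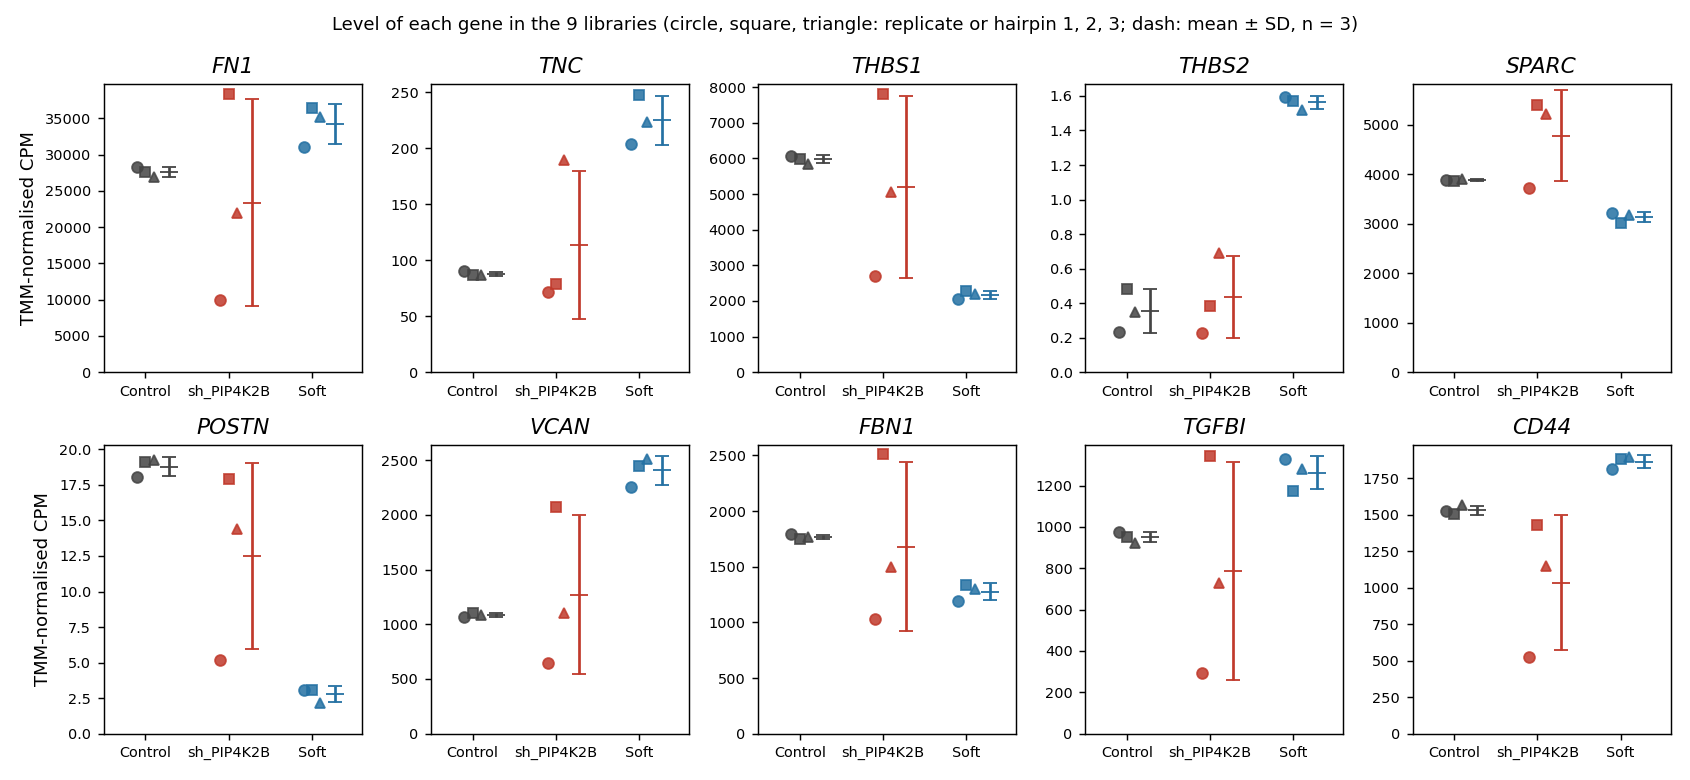
TMM-normalised CPM (y axis, linear and starting at 0, with its own range in each panel) of the 10 genes in the 9 libraries. Points are libraries, with circle, square and triangle for replicate or hairpin 1, 2 and 3, and the dash with bars is the mean ± SD (n = 3). The hairpin libraries are spread widely, with FN1 between 9891 and 38304 CPM, whereas Control and Soft libraries lie close together.

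To learn which of these genes differed after 24 h on the soft gel, Soft was compared with Control. TNC and THBS2 were higher and THBS1 and POSTN were lower on the gel, by 2.56-fold and 4.33-fold and by 2.75-fold and 6.75-fold. These were 4 of the 9 genes counted (edgeR quasi-likelihood F test, Benjamini-Hochberg adjusted p below 0.01), where 30.6% of the 13784 genes tested passed, 15.8% higher and 14.8% lower. THBS2 entered the test through its Soft level, so its call adds no support. VCAN missed the threshold, and SPARC, FBN1, TGFBI and CD44 did not pass. All 3 Soft libraries lay outside the range of the Control libraries for each of these 9 genes, as was the case for 79.4% of all genes. The fit takes 1 estimate of the spread from all groups. With Soft and Control fitted alone, 9 of 9 passed, as did 70.7% of all genes.

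To learn whether lower PIP4K2B gave the same genes a different level on glass, sh_PIP4K2B was compared with Control. None of the 10 genes passed in edgeR, where 5.54% of all genes did, 2.76% higher and 2.77% lower, and none had an unadjusted p under 0.05, against 33.2% of all genes. DESeq2 and limma voom also called none, where they called 15.0% and 2.31% of all genes. The unadjusted p was under 0.05 for SPARC in DESeq2 (34.3% of all genes) and for POSTN and CD44 in limma voom (22.2%). The 3 hairpins did not move together. With hairpin #1 all 10 genes were below the Control mean, with a median log2 ratio of -0.96, and 5 of them were over 2-fold lower (FN1, THBS1, POSTN, TGFBI and CD44), where 16.7% of all genes differed over 2-fold in either direction and 49.4% were below the Control mean. With hairpin #2, 3 genes were lower and 7 higher (median 0.43), and none differed over 2-fold. Over all genes 47.9% were lower with this hairpin and 6.96% differed over 2-fold. With hairpin #3, 6 were lower and 4 higher (median -0.24), and TNC was over 2-fold higher. The shares of all genes there were 48.7% lower and 11.7% over 2-fold in either direction. Hairpin #1 was the one with the highest remaining PIP4K2B level, and the part of that in these values was not tested.

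**Figure D3:**
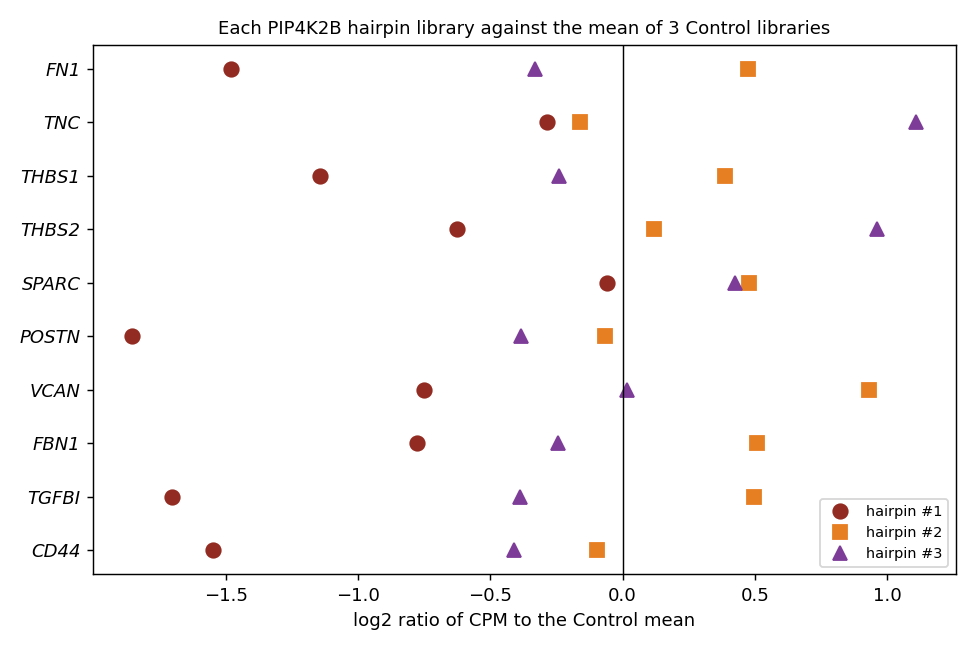
log2 ratio of CPM in each hairpin library to the mean of the 3 Control libraries (x axis) for the 10 genes (rows). Hairpin #1 lies left of 0 in every row, while hairpins #2 and #3 lie on both sides.

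Of the genes whose proteins form fibrils, FN1 had 28266, 27541 and 26893 CPM in Control, 9891, 38304 and 21918 CPM with hairpins #1, #2 and #3, and 31061, 36438 and 35150 CPM in Soft. Hairpin #1 gave 35.9% of the Control mean and hairpin #2 gave 139%, so the hairpins lay on both sides of Control. The log2 fold change in sh_PIP4K2B was -0.24 (SE 0.38, edgeR adjusted p = 0.706, 95% interval -1.10 to 0.63), and it was 0.12 without hairpin #1 and -0.80 without hairpin #2. Every Soft library was above every Control library, where 79.4% of all genes had Soft libraries wholly above or below Control. For FN1 this uses the Soft level with which the set was proposed, so it adds no support. The log2 fold change of FN1 in Soft was 0.31 (SE 0.38, not tested).

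FBN1, the microfibril protein, had 1790, 1750 and 1768 CPM in Control, 1032, 2514 and 1494 CPM with the hairpins, and 1196, 1339 and 1296 CPM in Soft. The Soft libraries were all below Control, and hairpin #2 was above while the others were below. In sh_PIP4K2B FBN1 differed from Control by -0.07 on the log2 scale (SE 0.27, edgeR adjusted p = 0.872), and in Soft by -0.47 (SE 0.27, adjusted p = 0.176, 95% interval -1.07 to 0.13). Without hairpin #1 the first of these was 0.18.

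Among the matricellular genes, THBS1, whose protein binds CD47 and can activate latent TGF-beta, had 6076, 5988 and 5852 CPM in Control, 2703, 7808 and 5059 CPM with the hairpins, and 2051, 2278 and 2193 CPM in Soft. The Soft libraries were all below every Control and hairpin library. How many of all genes had Soft libraries apart from both other groups was not counted, here or for TNC, POSTN and VCAN. THBS1 fell by 1.46 on the log2 scale in Soft (SE 0.31, edgeR adjusted p = 0.00431), whereas in sh_PIP4K2B the difference was -0.20 (SE 0.31, adjusted p = 0.684). The call in Soft was lost when any 1 Control or Soft library was left out, with adjusted p from 0.0148 to 0.0213 and log2 fold changes from -1.49 to -1.42. In sh_PIP4K2B the sign turned without hairpin #1 (0.10).

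THBS2, the related thrombospondin, was near the detection limit. It had 0.233, 0.483 and 0.350 CPM in Control, 0.230, 0.385 and 0.692 CPM with the hairpins, and 1.60, 1.57 and 1.52 CPM in Soft. This was 5 to 11 counts in a Control library and 33 to 35 in a Soft library. The log2 fold change in Soft was 2.11 (SE 0.39, edgeR adjusted p = 0.00196), and the ratio of summed counts was 4.37 with an exact 95% counting interval of 2.78 to 7.13. THBS2 passed the filter on low counts through its level in Soft, so that a gene kept in this way had to be higher there. The call was lost without Control replicate 1 (adjusted p = 0.0124) or Control replicate 3 (adjusted p = 0.013). The hairpin libraries differed from Control by 0.28 on the log2 scale (SE 0.44, adjusted p = 0.7), and it turned to -0.22 without hairpin #3.

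TNC, an adhesion-modulating glycoprotein of developing and healing tissue, had 90.1, 86.9 and 86.4 CPM in Control, 72.1, 78.5 and 189 CPM with the hairpins, and 204, 248 and 223 CPM in Soft. The Soft libraries were above all the others, and hairpin #3 stood apart from the other hairpins at 216% of the Control mean. TNC rose in Soft with a log2 fold change of 1.36 (SE 0.32, edgeR adjusted p = 0.00731). As for THBS1, the call was lost without any 1 Control or Soft library, with adjusted p from 0.0181 to 0.0311 and log2 fold changes from 1.28 to 1.42. With the hairpins TNC differed from Control by 0.37 on the log2 scale (SE 0.32, adjusted p = 0.453), and -0.22 without hairpin #3.

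POSTN, a matricellular protein that binds integrins and collagen, had 18.0, 19.1 and 19.2 CPM in Control, 5.20, 17.9 and 14.4 CPM with the hairpins, and 3.10, 3.10 and 2.15 CPM in Soft. It was below Control in all hairpin libraries and lower still in all Soft libraries. POSTN fell by 2.75 on the log2 scale in Soft (SE 0.39, edgeR adjusted p = 0.000503). It was the member that passed in Soft under all 20 alternatives run, with log2 fold changes from -2.84 to -2.60 and adjusted p from 8.75e-12 to 0.00399. The difference in sh_PIP4K2B was -0.59 on the log2 scale (SE 0.36, adjusted p = 0.282, 95% interval -1.39 to 0.21).

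SPARC, a collagen-binding matricellular protein and the most abundant of the set per length after FN1, had 3875, 3870 and 3901 CPM in Control, 3726, 5401 and 5214 CPM with the hairpins, and 3213, 3023 and 3174 CPM in Soft. Hairpins #2 and #3 were above Control and hairpin #1 just below it, and Soft was below Control. SPARC differed from Control by 0.30 on the log2 scale in sh_PIP4K2B (SE 0.16, edgeR adjusted p = 0.218, 95% interval -0.06 to 0.66) and -0.31 in Soft (SE 0.16, adjusted p = 0.139, 95% interval -0.66 to 0.05). Without hairpin #1 the first was 0.45 and passed (adjusted p = 0.00413), which was the only call of a member in sh_PIP4K2B under any of the 20 alternatives. 

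TGFBI had 974, 953 and 925 CPM in Control, 292, 1341 and 727 CPM with the hairpins, and 1331, 1175 and 1281 CPM in Soft. As for FN1, hairpin #1 was lowest, hairpin #2 was highest among the hairpins and Soft was above Control. The log2 difference of TGFBI from Control was -0.27 with the hairpins (SE 0.41, edgeR adjusted p = 0.684) and 0.41 on the gel (SE 0.41, adjusted p = 0.442, 95% interval -0.52 to 1.33). Without hairpin #1 the value in sh_PIP4K2B was 0.12.

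Of the genes of the hyaluronan coat, VCAN had 1064, 1105 and 1086 CPM in Control, 646, 2071 and 1099 CPM with the hairpins, and 2259, 2449 and 2513 CPM in Soft. The Soft libraries were above all the others, and among the hairpins #1 was below Control, #2 was well above it and #3 was within the Control range. The log2 fold change in Soft was 1.15 (SE 0.34, 2.22-fold, edgeR adjusted p = 0.0197), which misses the threshold of 0.01. It passed in 7 of the 20 alternatives, among them the leaving out of hairpin #1 (adjusted p = 0.00134) or hairpin #2 (adjusted p = 0.00106). Those 7 include the main fit read at a threshold of 0.05, a pass that follows from its adjusted p. With the hairpins VCAN differed from Control by 0.23 on the log2 scale (SE 0.33, adjusted p = 0.672), and -0.32 without hairpin #2.

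CD44 had 1524, 1502 and 1564 CPM in Control, 523, 1431 and 1152 CPM with the hairpins, and 1814, 1882 and 1897 CPM in Soft. All hairpin libraries were below and all Soft libraries above Control. POSTN and CD44 were the 2 of 10 genes whose hairpin libraries did not overlap with Control, where 34.1% of all genes showed this. The log2 fold change of CD44 was -0.56 in sh_PIP4K2B (SE 0.29, edgeR adjusted p = 0.213, 95% interval -1.22 to 0.10) and 0.29 in Soft (SE 0.29, adjusted p = 0.449, 95% interval -0.37 to 0.94).

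**Figure D4:**
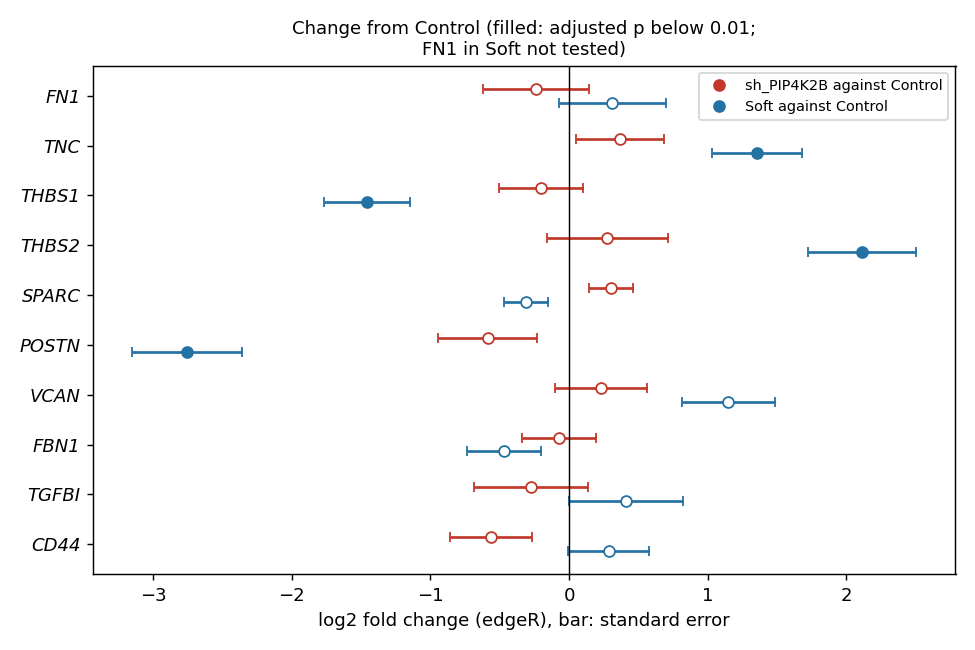
log2 fold change from edgeR (x axis) with its standard error (bars) for the 10 genes in sh_PIP4K2B (red) and Soft (blue) against Control. Filled points have an adjusted p below 0.01, which are TNC, THBS1, THBS2 and POSTN in Soft. FN1 in Soft was not tested.

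Soft was then compared directly with sh_PIP4K2B, a comparison that tests the difference between the other comparisons. THBS1 fell by 1.26 on the log2 scale from sh_PIP4K2B to Soft (adjusted p = 0.00913), POSTN fell by 2.17 (adjusted p = 0.00185), and THBS2 rose by 1.84 (adjusted p = 0.00397). These were 3 of 9 genes in edgeR, where 30.0% of all genes passed, 14.5% higher and 15.5% lower in Soft. The call of THBS2 adds no support here either, since the filter kept this gene through its Soft level. SPARC (log2 fold change -0.61, adjusted p = 0.0117), TNC (0.99, adjusted p = 0.0297), CD44 (0.85, adjusted p = 0.0394) and VCAN (0.92, adjusted p = 0.048) lay between 0.01 and 0.05, and FBN1 (-0.40, adjusted p = 0.25) and TGFBI (0.68, adjusted p = 0.203) above. FN1, not tested, had a log2 fold change of 0.55. The calls rested on few libraries, and the POSTN call, lost in 2 of 20 alternatives, was the one lost least often, against 6 of 19 for THBS2 and 12 of 20 for THBS1. No call was left without Soft replicate 3, while without Soft replicate 1 or Soft replicate 2 POSTN alone passed. Without hairpin #2, POSTN and VCAN passed.

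Ratios of counts within a library do not depend on the scaling between libraries, and were taken for a few pairs after the values were seen. FN1 had 4.65, 4.60 and 4.60 counts for each THBS1 count in Control, 3.66, 4.91 and 4.33 with hairpins #1, #2 and #3, and 15.2, 16.0 and 16.0 in Soft. Across the hairpins this ratio stayed within a narrow range although FN1 itself ranged from 35.9 to 139% of Control. VCAN had 0.595, 0.631 and 0.614 counts for each FBN1 count in Control, 0.626, 0.824 and 0.736 with the hairpins, and 1.89, 1.83 and 1.94 in Soft. By contrast FN1 per TGFBI count was 28.9 to 29.1 in Control, 28.6 to 33.9 with the hairpins and 23.3 to 31.0 in Soft, ranges that overlapped. SPARC had 0.137 to 0.145 counts per FN1 count in Control, but 0.377 with hairpin #1 and 0.238 with hairpin #3, against 0.141 with hairpin #2 and 0.0830 to 0.103 in Soft.

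The 5 genes whose log2 CPM followed FN1 most closely over the 9 libraries were CERS2 (Pearson r = 0.994), which encodes a ceramide synthase, RPL23A (0.993) and RPL12 (0.987), which encode proteins of the large ribosomal subunit, G6PC3 (0.986), which encodes a glucose-6-phosphatase, and TGFBI (0.985), the member described above. The points are 3 groups that share cell line and vector and are not independent, so these values are a description with no test. The hairpin libraries set most of the range. RPL23A had 216, 694 and 468 CPM with hairpins #1, #2 and #3, against 523 to 554 CPM in Control and 637 to 646 CPM in Soft. CERS2 followed the same order over a smaller range, from 190 CPM with hairpin #1 to 277 CPM with hairpin #2. Ribosomal protein genes have many near-identical pseudogene copies, so their counts are uncertain.

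Other genes of the same pathways were taken as whole lists, whose counts are to be read against the shares over all genes. In Soft against Control 30.6% of all genes passed in edgeR, 54.3% had an unadjusted p under 0.05 there, and DESeq2 and limma voom called 39.6% and 70.0%. In sh_PIP4K2B against Control these shares were 5.54%, 33.2%, 15.0% and 2.31%. Of 21 other matricellular genes 11 were tested, and in Soft 5 were higher and 3 lower (median log2 fold change 0.68, against 0.01 over all genes), with 8 calls in DESeq2 and 9 in limma voom. CTGF and CYR61, which encode secreted CCN proteins and are often used as readouts of YAP activity, fell by 3.11 (SE 0.17, edgeR adjusted p = 4.93e-06) and 1.70 (SE 0.16, adjusted p = 5e-05). CTGF had 1381 to 1402 CPM in Control and 153 to 165 CPM in Soft. With hairpins #1, #2 and #3 it had 634, 884 and 979 CPM. Its log2 fold change in sh_PIP4K2B was -0.74 and missed the threshold (SE 0.16, edgeR adjusted p = 0.0138). CYR61 had 941, 786 and 611 CPM with the hairpins, against 754 to 762 CPM in Control (0.04, SE 0.15, adjusted p = 0.88). SPOCK3, a proteoglycan of the SPARC family, rose from 0.834 to 1.96 CPM in Control to 8.76 to 10.7 CPM in Soft (adjusted p = 0.000228). TNXB, a tenascin, had 3 to 5 counts per Control library and 110 to 132 per Soft library, a ratio of summed counts of 30.5 (exact 95% counting interval 17.2 to 59.6). TNXB and SPOCK2, the latter named after its values were seen, entered the test through their Soft level and had to be higher there than in Control, so their calls add no support. In sh_PIP4K2B none of these 11 passed in edgeR (median 0.04, against 0.05 over all genes), while 5 had an unadjusted p under 0.05, and DESeq2 called 4 and limma voom 2.

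Of 17 genes of elastic fibres and microfibrils other than FBN1, 13 were tested, and 5 were higher and none lower in Soft (median 1.07), where 30.6% of all genes passed. In either direction 9 had an unadjusted p under 0.05 in edgeR (54.3% of all genes), DESeq2 called 8 (39.6%) and limma voom 12 (70.0%). ELN, which encodes elastin, had at most 1 count in a Control library and 21 to 36 in a Soft library, a ratio of summed counts of 45.8 (exact 95% counting interval 12.3 to 384), and it was tested only through its Soft level, so that its call adds no support. FBLN7, a fibulin, had 1.14 to 1.58 CPM in Control and 6.57 to 8.09 CPM in Soft (log2 fold change 2.44, SE 0.25, adjusted p = 8.52e-05). None of the 13 passed in sh_PIP4K2B in edgeR (median 0.15), with 2 at an unadjusted p under 0.05, 1 call in DESeq2 and 0 in limma voom.

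Of 20 genes for hyaluronan turnover and small proteoglycans 13 were tested, and 2 were higher and 1 lower in Soft (median 0.25), with 6 calls in DESeq2 and 11 in limma voom, against 30.6%, 39.6% and 70.0% of all genes. DCN, the collagen-binding proteoglycan decorin, rose from 2.37 to 2.84 CPM in Control to 22.3 to 29.5 CPM in Soft (log2 fold change 3.39, SE 0.35, edgeR adjusted p = 9.57e-05). LUM, which encodes the related lumican, had 1 to 4 counts per Control library and 11 to 17 per Soft library (ratio of summed counts 6.17, exact 95% counting interval 2.75 to 16.3), and like ELN it was tested only through its Soft level, so that its call adds no support. TMEM2, a cell-surface hyaluronidase, fell by 2.00 (SE 0.25, adjusted p = 0.000225), from 185 to 192 CPM in Control to 43.6 to 49.4 CPM in Soft. None of the 13 passed in sh_PIP4K2B in edgeR (median -0.39), with 6 at an unadjusted p under 0.05, 4 calls in DESeq2 and 0 in limma voom.

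Among the receptors of these proteins, of 19 integrin, syndecan and other receptor genes 17 were tested, and in Soft 1 was higher and 1 lower (median -0.18), with 3 calls in DESeq2 and 12 in limma voom, against 30.6%, 39.6% and 70.0% of all genes. SDC3, a syndecan, rose from 75.3 to 80.5 CPM in Control to 266 to 310 CPM in Soft (log2 fold change 1.92, SE 0.30, edgeR adjusted p = 0.00088). ITGB6, a subunit of an integrin that binds fibronectin and latent TGF-beta, was low in all groups and fell by 1.15 (SE 0.28, adjusted p = 0.00889), from 1.18 to 1.57 CPM to 0.536 to 0.762 CPM. None of the 17 passed in sh_PIP4K2B in edgeR (median -0.11), with 5 at an unadjusted p under 0.05, 3 calls in DESeq2 and 0 in limma voom.

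Of 16 genes of TGF-beta signalling, THBS1 left out, 15 were tested, and in Soft 4 were higher and 2 lower (median 0.38), with 7 calls in DESeq2 and 12 in limma voom. The ligand gene TGFB2 fell by 1.73 (edgeR adjusted p = 0.00186), from 325 to 363 CPM in Control to 96.9 to 108 CPM in Soft, whereas TGFB3 rose by 1.78 (adjusted p = 0.00147), from 1.36 to 2.14 CPM to 5.72 to 6.43 CPM. LTBP1, which binds latent TGF-beta and stood in the microfibril list too, rose from 161 to 173 CPM to 466 to 543 CPM (log2 fold change 1.59, adjusted p = 0.000402). In sh_PIP4K2B 1 of the 15 passed (median 0.34), the receptor gene TGFBR1 with 28.2, 29.7 and 34.0 CPM in Control, 47.1, 56.5 and 74.0 CPM with the hairpins, and a log2 fold change of 0.95 (SE 0.16, adjusted p = 0.00602). In the same comparison 8 of the 15 had an unadjusted p under 0.05, DESeq2 called 5 and limma voom 0, so the call of TGFBR1 was lost with limma voom, and 5.54% of all genes passed in edgeR.

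**Figure D5:**
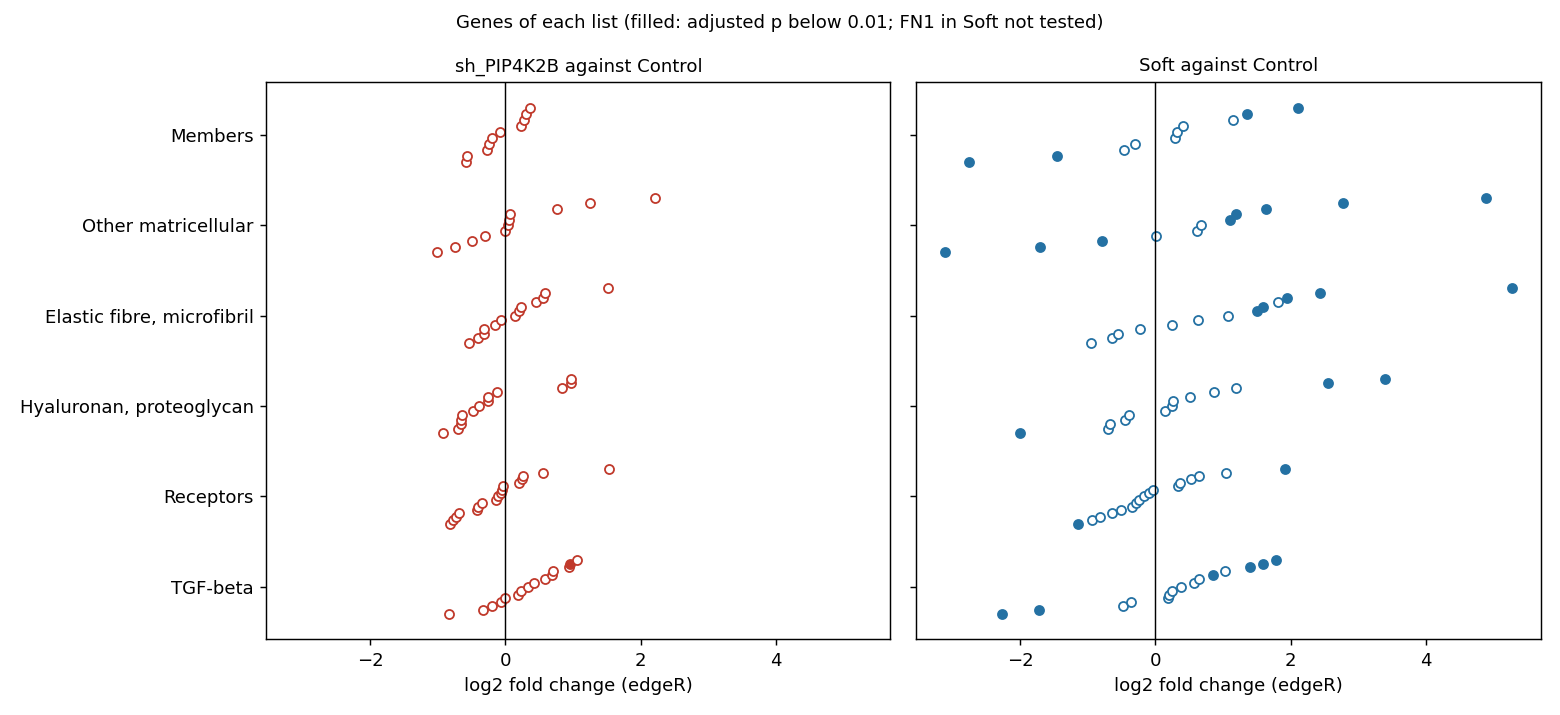
log2 fold change from edgeR (x axis) of each tested gene in the set and in 5 other lists (rows), in sh_PIP4K2B (left) and Soft (right) against Control. Each point is a gene, filled where the adjusted p is below 0.01. In sh_PIP4K2B TGFBR1 is the only filled point, while in Soft filled points lie in every list.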

How the data were processed

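The authors prepared stranded mRNA libraries, and the submitters' processing notes name STAR, Salmon and GRCh38/hg38. The annotation and the strand setting of the counting are not given in the sources used here. The table deposited by the authors holds an estimated count for each gene and library, without scaling. Of the values 12.3% were not whole, and all were rounded. The 10 genes, the lists and the tests were chosen with earlier results of these data known. A single model over the 9 libraries was fitted in edgeR 4.0.16 (R 4.3.3; TMM, filterByExpr, quasi-likelihood F test, Benjamini-Hochberg adjustment over 13784 genes, threshold 0.01), with the SE taken from the F statistic. It was tested on simulated data. CPM are TMM-normalised. Medians and counts of log2 ratios of a hairpin library to the Control mean used a pseudocount of 0.1 CPM. Named were all 10 genes, PIP4K2B, from each list the 2 highest and 2 lowest genes that passed, and the 5 genes most like FN1, and 1 gene of these is not reported here. CPM per kilobase used GENCODE v44 canonical transcripts, which 24542 of 26475 symbols had. All 10 genes matched a RefSeq promoter. Counting intervals cover counting error only. DESeq2 1.42.0 and limma 3.58.1 (voom with group weights) were alternatives. Lists of marker genes for pigment epithelium, for simple epithelium and mesenchyme, and for other cell types were checked. The list for simple epithelium and mesenchyme summed to 10908 to 11116 CPM for Control, 5530 to 9430 CPM for sh_PIP4K2B and 7190 to 7519 CPM for Soft. Most of that sum was VIM, a mesenchymal gene, with means of 8594, 6187 and 6151 CPM in the same order.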

Additional observations from a re-analysis of the deposited data

Results flagged for a closer look

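CD44 was set apart because every library of sh_PIP4K2B lay below and every library of Soft above the Control libraries, with log2 fold changes of -0.56 and 0.29. Tested directly, the difference between Soft and sh_PIP4K2B was 0.85 on the log2 scale, with an edgeR adjusted p of 0.0394, which misses the threshold of 0.01. It passed in 4 of the 20 alternatives, with adjusted p from 0.00295 to 0.0963 over all of them. Those 4 include the main fit read at a threshold of 0.05, a pass that follows from 0.0394. CD44 was chosen by this pattern, which fixed the sign of that difference, so its test adds no support. Hairpin libraries lay wholly above or below Control for 34.1% of all genes, and Soft libraries for 79.4%. How many genes showed both in opposite directions was not counted. Opposite signs were not particular to CD44. FN1 (-0.24 and 0.31), SPARC (0.30 and -0.31) and TGFBI (-0.27 and 0.41) had them too, but with hairpin libraries on both sides of Control. The direct difference of SPARC, -0.61 with an adjusted p of 0.0117, was nearer to the threshold and passed in 5 of the 20 alternatives. The main fit read at a threshold of 0.05 is among those 5 too. No effect of CD44, SPARC or TGFBI against Control passed in the edgeR fit to all 9 libraries. With Soft and Control fitted alone, CD44, SPARC and TGFBI passed in Soft. FN1 in Soft was not tested, and both comparisons share the Control libraries.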

How the results depend on the processing

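The spread of the hairpin libraries enters every test of the shared fit. In sh_PIP4K2B against Control, 0 of 10 genes passed under each alternative except the leave-one-out fits, which gave 0 to 1. Over all genes the leave-one-out fits called 0.471 to 14.4%. In Soft against Control, 4 of 9 became 9 with limma voom and 9 with the 2 groups alone, and 1 to 6 with 1 library left out. Over all genes 30.6% became 70.0%, 70.7%, and 17.9 to 45.6% in the same order. In Soft against sh_PIP4K2B, 3 of 9 became 6 with DESeq2, 6 with limma voom, 0 with the 2 groups alone, 1 with at least 10 counts in every library, 7 at an adjusted p below 0.05, and 0 to 5 with 1 library left out. THBS2 has no value under that count filter, which drops it. In this comparison the share of all genes, 30.0% in the main fit, became 39.2% with DESeq2, 18.6% with limma voom and 16.1% with the 2 groups alone. It was 31.1% with at least 10 counts in every library, 46.2% below 0.05, and 16.8 to 38.4% with 1 library left out. Over all genes, 763 calls in sh_PIP4K2B became 2066 with DESeq2, 319 with limma voom, 5 with the 2 groups alone, 2375 below 0.05, and 66 to 2013 with 1 library left out. In Soft against Control, 4217 became 9645 with limma voom, 9601 with the 2 groups alone, 6498 below 0.05, and 2506 to 6373 with 1 library left out. In Soft against sh_PIP4K2B, 4135 became 2565, 2183, 6372, and 2350 to 5374 under the same alternatives. The replicate numbers did not pair the samples (correlations of deviations for same-numbered Control and Soft libraries of -0.12, -0.02 and -0.05). With the replicate number as a block, 0, 4 and 2 genes passed in the 3 comparisons, and 295, 3536 and 3366 over all genes. With scaling by library size alone, the median log2 fold change of all genes was 0.14 in sh_PIP4K2B and 0.12 in Soft, against 0.05 and 0.01, and no gene of the set changed sign in either comparison. The sign in sh_PIP4K2B turned for FN1, FBN1, THBS1 and TGFBI without hairpin #1, for VCAN without hairpin #2, and for TNC and THBS2 without hairpin #3.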
